A study of Mus musculus with 4 samples.

Results

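The EGF receptor ligands and receptors were followed in RNA sequencing libraries of gastric corpus mucosa from mice that lack Muc6, the mucin of gland mucous cells, and from their wild-type counterparts. The 10 genes were chosen by name: 7 ligands (Areg, Ereg, Hbegf, Tgfa, Btc, Egf and Nrg1) and 3 receptors (Egfr, Erbb2 and Erbb3), out of 34866 genes in the deposited table. There were 2 libraries of genotype Muc6 +/+ (wild type) and 2 of genotype Muc6 -/- (knockout, a newly generated line), all from mucosa of the corpus with no treatment named. The labels state no age, sex or strain, do not describe the allele, and do not tie each library to its own animal. The p-values therefore measure the spread between these libraries, which may be technical. The titles of the knockout libraries hold a tag, 3M, that the wild-type titles lack and that the labels do not explain. The study was designed to look for a link between Muc6 and cancer formation in the stomach.

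Ligands of the EGF family are made as membrane-anchored precursors that metalloproteases such as Adam17 and Adam10 cut free. Areg, Hbegf, Tgfa, Btc, Ereg and Egf bind Egfr, and Nrg1 binds Erbb3. Erbb2 has no known ligand of its own and acts as the preferred partner of the other receptors, while Erbb3 has little kinase activity and signals through its partner. In the stomach, EGF and TGF-alpha are known for restraining acid secretion and for promoting repair of the epithelium, and an excess of TGF-alpha expands surface mucous cells.

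One ligand stood apart. Egf was lower in both knockout libraries than in both wild-type libraries, by about 39.5-fold in summed counts scaled by library size. Areg, Hbegf, Btc and Egfr were each highest in knockout 1, at 2.30 to 5.12 times the wild-type mean, whereas knockout 2 lay within or close to the wild-type range. No member passed an adjusted p of 0.05 in the fit across all 14067 genes tested, and neither did any other gene by edgeR's quasi-likelihood test, so the background of called genes was 0%. At an unadjusted p under 0.05 edgeR had 1 member, Egf, and 2236 genes in all. DESeq2 called 1044 genes (7.42%) and limma's voom 0, with no EGF family member in either.

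Promoters are shown for the ligand that was lowest in knockout (Egf), for the ligand with the largest positive fold change (Areg) and for its neighbour in the same gene cluster (Btc). RefSeq promoters (GRCm38.p6) were matched for 6 of the 10 genes. The 250 bases before the transcription start are printed 5′ to 3′ in the direction of the gene, with capitals marking matches to any of 6 motifs that were searched on both strands. They lie at chr3:129755323-129755572 on the minus strand (Egf), chr5:91139349-91139598 on the plus strand (Areg) and chr5:91402995-91403244 on the minus strand (Btc).
Egf: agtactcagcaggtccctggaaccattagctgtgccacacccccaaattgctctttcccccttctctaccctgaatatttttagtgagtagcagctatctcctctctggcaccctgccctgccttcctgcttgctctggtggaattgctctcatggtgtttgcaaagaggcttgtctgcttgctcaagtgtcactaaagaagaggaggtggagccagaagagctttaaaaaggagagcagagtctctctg
Areg: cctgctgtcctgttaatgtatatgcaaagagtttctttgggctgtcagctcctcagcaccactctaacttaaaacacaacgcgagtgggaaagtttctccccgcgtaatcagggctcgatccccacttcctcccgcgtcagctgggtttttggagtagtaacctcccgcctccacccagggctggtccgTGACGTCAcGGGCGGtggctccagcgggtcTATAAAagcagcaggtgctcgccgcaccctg
Btc: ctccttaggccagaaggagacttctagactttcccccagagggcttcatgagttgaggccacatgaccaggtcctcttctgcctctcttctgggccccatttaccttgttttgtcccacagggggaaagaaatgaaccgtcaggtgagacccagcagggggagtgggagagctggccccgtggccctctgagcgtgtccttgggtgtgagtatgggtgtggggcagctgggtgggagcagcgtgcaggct
The motifs were the AP-1 site TGANTCA, the core of the cAMP response element TGACGT, the TATA box TATAAA, the E-box CACGTG, the GC box GGGCGG and the nuclear receptor half-site AAGGTCA. Of 32851 promoters of the same length, 6.75% held the AP-1 site, 6.47% the cAMP response element core, 12.4% the TATA box, 6.02% the E-box, 32.7% the GC box and 4.08% the half-site. The Areg promoter held the cAMP response element core on both strands, at -61 and -59, where the matches overlap, followed by a GC box at -52 and a TATA box at -31, counted from the start. In Egf and Btc none of these letters were found in the window. A match is a description of the sequence and not evidence that a factor binds there.

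Libraries held 20327745 to 27946423 counts. Muc6 checked the labels, with 8542 and 6000 counts in the wild-type pair and 0 and 10 in the knockout pair. The Y-linked genes (4 measured) differed by genotype as well. Their summed levels were 136 and 121 CPM (counts scaled to a common library size) for wild type and 1.43 and 2.44 CPM for knockout. Genotype therefore cannot be told apart from Y-linked expression, nor from sex, which the labels do not give, for any gene below. CPM are scaled by TMM library sizes throughout. Of all genes tested, 26.3% were higher and 23.8% lower in knockout without overlap, the background for such counts of markers. Parietal cell markers (8 genes led by Atp4a) were lower in both knockout libraries without overlap for 8 of 8. Their summed CPM were at 4.52% and 32.4% of the wild-type mean for knockout 1 and 2. Chief cell markers (5 genes led by Pgc) were at 2.86% and 76.8%. Mucous neck and metaplasia markers (7 genes including Tff2) were at 1040% and 675%, with 6 higher and Muc6 itself lower without overlap. Tff2 carried most of that sum (11709 of 12613 CPM in knockout 1, 7314 of 8181 CPM in knockout 2). The libraries were also split by sample number: fibroblast markers (6 genes led by Col1a1) reached 44.3 and 62.1 CPM in wild type 1 and knockout 1 but 469.9 and 440.8 CPM in wild type 2 and knockout 2, and smooth muscle markers (5 genes led by Myh11) 249 and 354 CPM against 1604 and 1716 CPM. The antral marker Gast had 218 counts in knockout 1, 0 in knockout 2, and 1 and 0 in wild type. The antral marker Pdx1 had 1316 counts (59.0 CPM) in knockout 1, 61 (2.52 CPM) in knockout 2, and 7 and 1 in wild type. Squamous forestomach markers (9 genes, with Krt13 at 117 CPM carrying most of the knockout 1 sum and Krt5 at 1.30 CPM there) reached 133 CPM in knockout 1, 10.8 CPM in knockout 2, and 0.928 and 0.417 CPM in wild type, with Trp63, Sprr3 and Krtdap at 0 in all 4 libraries. Mitochondrially encoded genes were lower in knockout without overlap for 9 of 9, at 54.5% and 48.5% of the wild-type mean. Proliferation markers (5 genes including Mki67) were higher without overlap for 5 of 5, at 231% and 195%, and intestinal markers (5 genes, mostly Lgals4 and Vil1) were at 446% and 140%. The part of these lists in the results below was not tested. In such bulk samples, fewer cells of a type and less RNA per cell cannot be told apart.

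**Figure D1:**
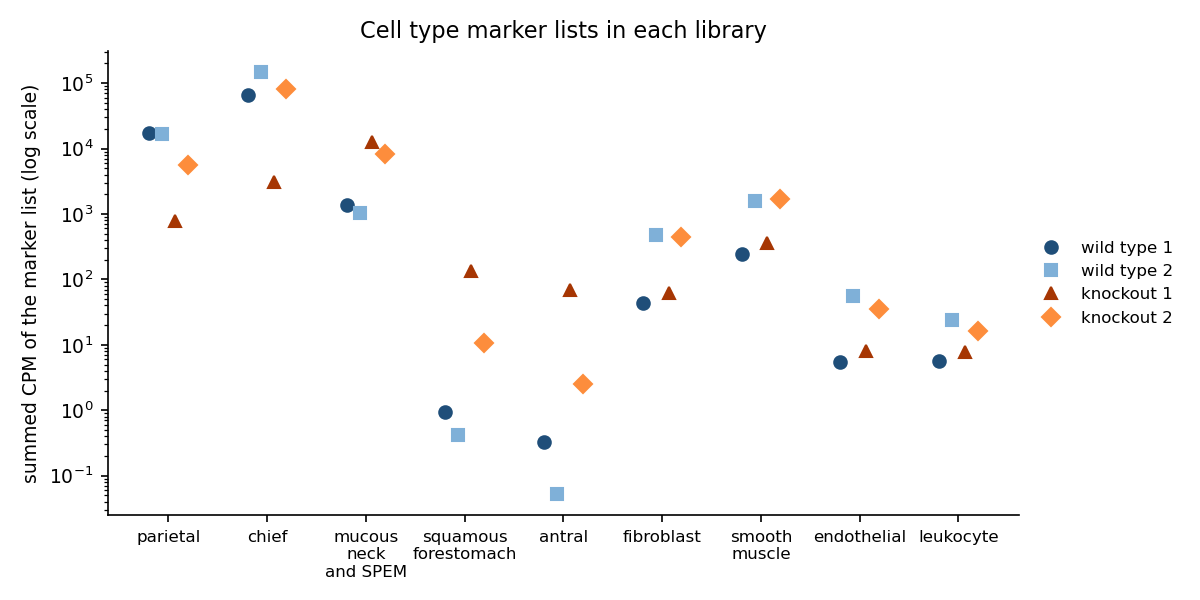
Summed CPM of cell type marker lists (log axis) in the 4 libraries, 1 point per library, without error bars because each point is a single library. Parietal markers are lowest in knockout 1 (777 CPM) and knockout 2 (5569 CPM), while fibroblast and smooth muscle markers are high in the libraries numbered 2 of both genotypes.

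Egf encodes epidermal growth factor, which is released from a large membrane-bound precursor. The gene (ENSMUSG00000028017.7) spans 129677565 to 129755316 on the minus strand of chromosome 3 (mm10). Wild type 1 and 2 held 2926 and 997 counts, or 118 and 51.9 CPM. Knockout 1 held 2 counts and knockout 2 held 103, or 0.0897 and 4.25 CPM. Both knockout libraries were thus below both wild-type libraries, and the value in knockout 1 lay under the level that 3 counts would give there (0.134 CPM). The wild-type libraries themselves differed by 2.27 times.

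The summed counts of Egf, scaled by TMM library sizes, were 39.5-fold lower in knockout (exact 95% interval 32.6 to 48.4, counting error only). The fitted log2 fold change of -5.27 ± 1.49 (SE, n = 2 per group throughout) ranked 12 from the lowest of the 14067 genes tested. Its adjusted p was 0.255 in edgeR and 0.0654 in DESeq2. Among the members Egf alone was below an unadjusted 0.05 in edgeR, a threshold at which 6.68% of all genes tested were lower. It was also the only member lower without overlap between the genotypes, as were 23.8% of all genes tested. The size rested on the knockout library used: without knockout 1 the log2 fold change was -4.35 ± 0.80, and without knockout 2 it was -9.84 ± 1.26, with edgeR adjusted p of 0.262 and 0.0835.

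Egf and the parietal marker list were both low in knockout, but not by the same factor. Egf was at 0.106% of its wild-type mean in knockout 1 and at 5.0% in knockout 2, where the parietal list was at 4.52% and 32.4%. The summed chief cell markers were at 2.86% in knockout 1 and 76.8% in knockout 2, a sum carried mostly by Pgc (79868 of 82078 CPM in knockout 2). The part of cell composition in the Egf result was not tested. Annotated genes on the opposite strand (2 of them) share exon bases with Egf, and the sources used here do not say whether reads were assigned by strand.

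Areg encodes amphiregulin, an Egfr ligand of injured and growing epithelia. The gene (ENSMUSG00000029378.5) spans 91139599 to 91148432 on the plus strand of chromosome 5. Wild type 1 and 2 gave 23.8 and 14.6 CPM (589 and 281 counts), knockout 1 gave 98.3 CPM (2193 counts) and knockout 2 gave 17.9 CPM (433 counts). Only knockout 1 was above the wild-type range, and knockout 2 lay between the wild-type libraries. This gave a log2 fold change of 1.60 ± 0.88 (adjusted p = 0.467 in edgeR, 0.267 in DESeq2). Without knockout 1 the direction turned, to -0.14 ± 0.32 (edgeR adjusted p = 0.930), and without knockout 2 it was 2.31 ± 0.30 (edgeR adjusted p = 0.0571).

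Hbegf encodes the heparin-binding ligand of the family. Its wild-type levels of 19.9 and 15.4 CPM compared with 42.8 CPM for knockout 1 and 20.2 CPM for knockout 2. Hbegf was the only member higher in both knockout libraries without overlap, as were 26.3% of all genes tested, and the gap between knockout 2 and wild type 1 was small. The fit gave 0.83 ± 0.42 on the log2 scale (edgeR adjusted p = 0.424). Without knockout 2 it was 1.23 ± 0.17 (edgeR adjusted p = 0.0479). That fit has 1 knockout library, which is assumed to vary like the wild-type pair, and it called 851 of 14672 genes (5.8%). In every other fit without 1 library the lone library is likewise assumed to vary like the other genotype's pair. Hbegf was the only member called without knockout 2. Without knockout 1 it was 0.15 ± 0.20 (edgeR adjusted p = 0.841).

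Btc encodes betacellulin, which can bind Erbb4 as well as Egfr. The wild-type libraries held 37.6 and 27.2 CPM, and the knockout libraries 74.6 and 32.6 CPM. As for Areg, knockout 2 lay inside the wild-type range and knockout 1 above it. Its log2 fold change of 0.73 ± 0.46 (edgeR adjusted p = 0.517) turned to -0.034 ± 0.21 without knockout 1.

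Tgfa, which encodes TGF-alpha, had the smallest fold change among the ligands of more than 10 CPM. Its levels of 70.3 and 44.0 CPM in the wild-type pair and 89.0 and 47.0 CPM in the knockout pair overlapped, with number 1 the higher of each pair. Its log2 fold change of 0.25 ± 0.42 (edgeR adjusted p = 0.824) was -0.32 without knockout 1 and -0.056 without wild type 2.

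The remaining pair of ligands was scarce. Ereg, which encodes epiregulin, reached 0.282 and 2.45 CPM (7 and 47 counts) for wild type, against 3.05 and 1.78 CPM (68 and 43 counts) for knockout. Its log2 fold change of 0.83 ± 1.11 (edgeR adjusted p = 0.777) came to 3.06 without wild type 2 and to -0.016 without wild type 1. Nrg1, a neuregulin gene, reached 0.565 and 6.77 CPM (14 and 130 counts) for wild type, against 1.70 and 4.54 CPM (38 and 110 counts) for knockout. It was higher in the library numbered 2 of each genotype, by 12.0 times in wild type and 2.67 times in knockout. Fibroblast markers were higher in the same libraries by 10.6 and 7.09 times, and smooth muscle markers by 6.44 and 4.85 times. Their part in the level of Nrg1 was not tested. Between genotypes Nrg1 differed by -0.22 ± 1.27 on the log2 scale (edgeR adjusted p = 0.958), with a positive value without wild type 2 (2.45) and without knockout 1 (0.23).

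**Figure D2:**
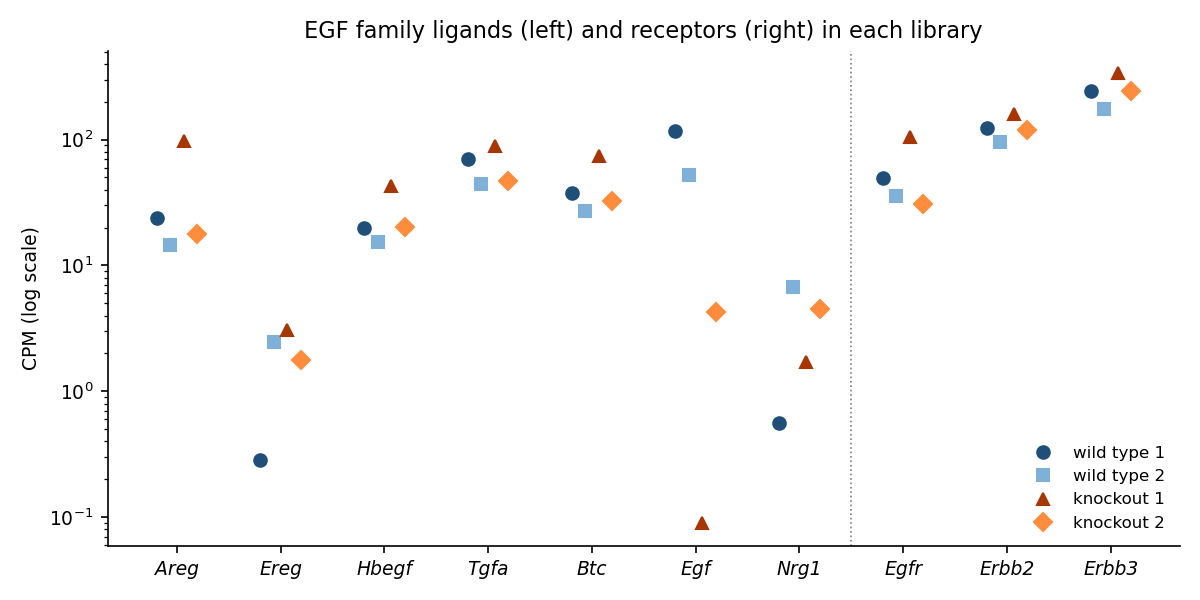
CPM (log axis) of the 7 ligands and 3 receptors in each of the 4 libraries, 1 point per library and no error bars. Egf is the only gene with both knockout points below both wild-type points, and knockout 1 is the highest point for 8 of the 10 genes.

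All 3 receptors were well expressed and overlapped between the genotypes. Egfr, the receptor for most of these ligands, showed 49.1 and 35.6 CPM for wild type, 105 CPM for knockout 1 and 30.6 CPM for knockout 2. Knockout 1 was the highest library and knockout 2 the lowest, so the log2 fold change of 0.68 ± 0.64 (edgeR adjusted p = 0.677) turned to -0.51 ± 0.22 without knockout 1. Erbb2 showed 124 and 95.7 CPM for wild type and 161 and 118 CPM for knockout, a log2 fold change of 0.35 ± 0.25 (edgeR adjusted p = 0.566). For Erbb3 these were 245 and 177 CPM and 337 and 244 CPM, a log2 fold change of 0.46 ± 0.29 (edgeR adjusted p = 0.507). For Erbb2 and Erbb3 the knockout 2 value lay between the wild-type values. Both stayed positive without each library in turn, between 0.063 and 0.55 for Erbb2 and between 0.17 and 0.72 for Erbb3.

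**Figure D3:**
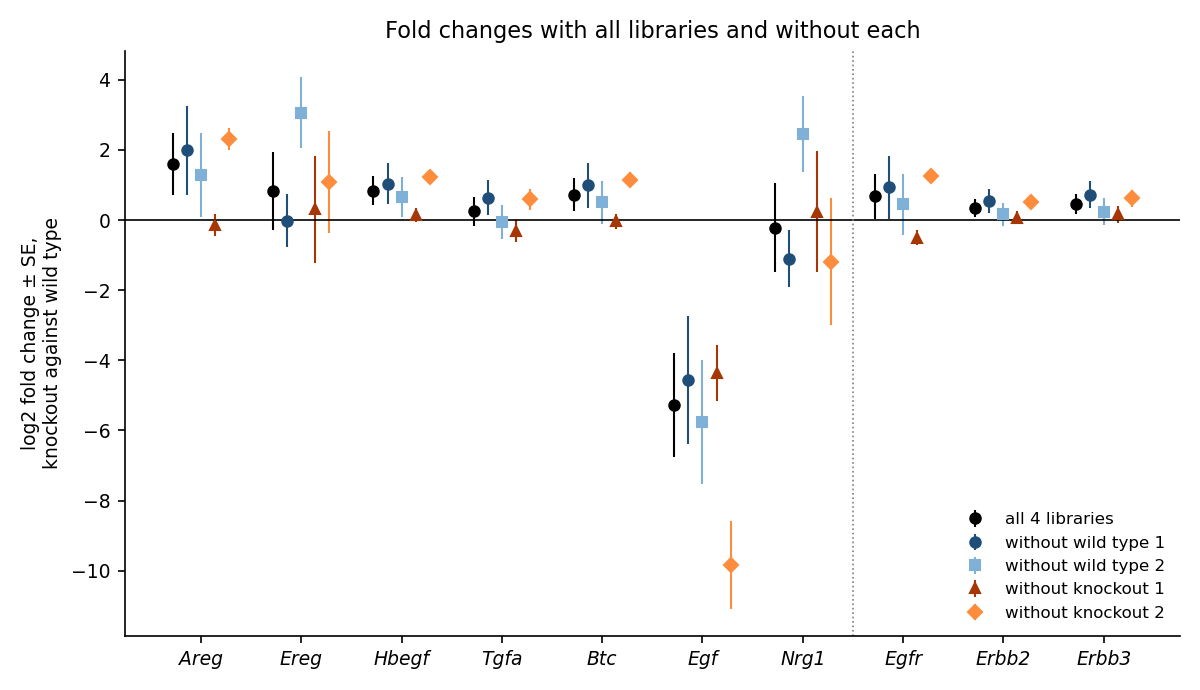
Log2 fold change of knockout against wild type with its standard error, from the fit with all 4 libraries (black) and from fits without 1 library (colour and symbol of the library left out). Egf stays below -4 in every fit, whereas Areg, Btc, Tgfa and Egfr turn negative, and Nrg1 positive, when knockout 1 is left out.

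As a set, 8 of the 10 members had positive fold changes and all 10 passed the filter on low counts. The median log2 fold change was 0.57 over the members, against -0.0017 over all genes tested. Without knockout 1 the median over the members was 0.015. Relative to the wild-type mean, the members' median was 0.96 in knockout 1 and 0.073 in knockout 2 on the log2 scale. Knockout 1 was the highest of the 4 libraries for 8 of 10 members, against 33.4% of all genes tested, and knockout 2 lay within the wild-type range for 7 of 10, against 29.2% of all genes tested. Antral and squamous markers, given above, were also highest in knockout 1. In knockout 2 their sums were lower (2.52 and 10.8 CPM) but, unlike most members, still above both wild-type libraries. Intestinal markers were at 446% and 140% of the wild-type mean in knockout 1 and 2. The part of these lists was not tested.

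Levels were compared between genes per kilobase of exon, over the merged exons of each gene. Areg was the highest ligand in each of the 4 libraries (19.6 and 12.0 CPM per kilobase for wild type, 80.9 and 14.7 for knockout). In wild type it was followed by Tgfa (8.81 ± 2.86, mean and SD, n = 2), Egf (7.54 ± 4.15), Btc (7.17 ± 1.64) and Hbegf (3.65 ± 0.65), where Tgfa, Egf and Btc did not differ from each other beyond their spread. Ereg (0.33 ± 0.37) and Nrg1 (0.35 ± 0.42) came last. In knockout Egf moved to the last place in both libraries. Its share of the summed ligand level was 19.6% and 13.6% for wild type but 0.00658% and 1.09% for knockout. The share of Areg was 36.6% and 35.5% for wild type and 66.9% and 42.5% for knockout. With Egf left out of the sum it was 45.5% and 41.1% for wild type, 66.9% for knockout 1 and 43.0% for knockout 2, so that knockout 2 then lay between the wild-type libraries. The sum of the 7 ligands came to 53.4 and 33.9 CPM per kilobase for wild type and 121 and 34.6 for knockout, so the knockout 2 sum lay within the wild-type range although Egf was nearly missing from it.

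**Figure D4:**
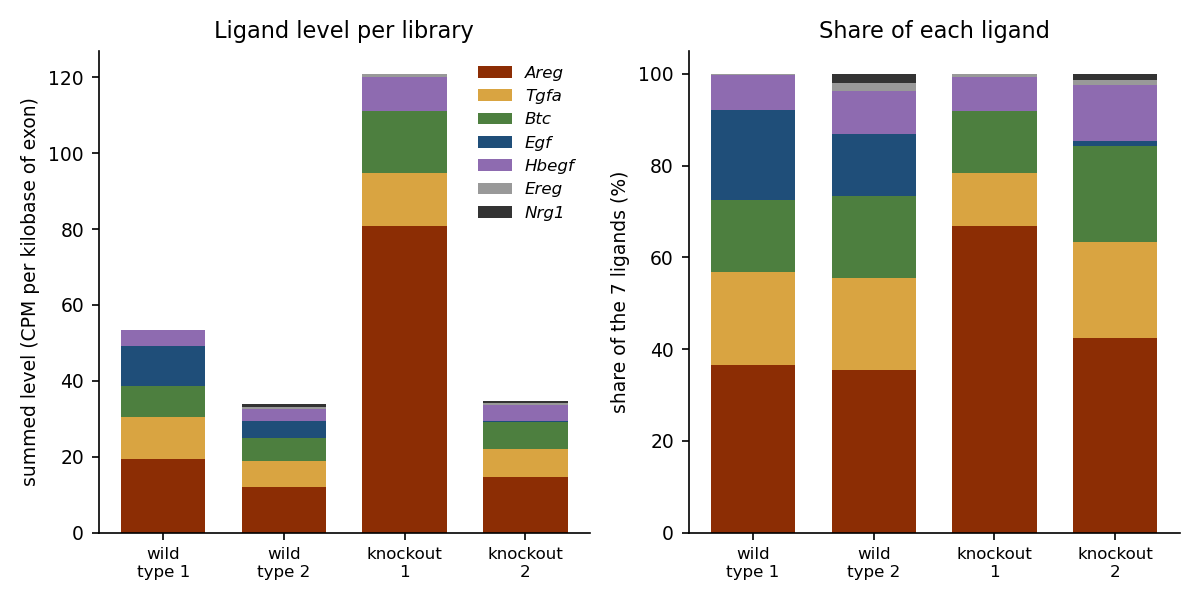
Left, level of the 7 ligands stacked in CPM per kilobase of exon for each library; right, the same as percent of the sum. The Egf segment takes 19.6% and 13.6% of the wild-type bars and at most 1.09% of the knockout bars, and the Areg segment takes 66.9% of knockout 1.

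The receptors kept 1 order in every library, with Erbb3 above Erbb2 above Egfr. In wild type these were 35.1 ± 8.08, 21.1 ± 3.83 and 3.74 ± 0.84 CPM per kilobase (mean and SD, n = 2), and the neighbours in that order did not overlap. In knockout they were 48.2 ± 10.9, 26.8 ± 5.79 and 5.98 ± 4.63. Erbb3 took 57.7% to 61.5% of the receptor sum over the 4 libraries. The remaining receptor of the family, Erbb4, had no counts in either wild-type library and 1 and 3 in knockout. The other ligand genes were as scarce: Epgn had 3, 0, 13 and 3 counts, Nrg2 1, 7, 1 and 0, Nrg3 2, 3, 0 and 1, and Nrg4 10, 4, 24 and 9, in wild type 1, wild type 2, knockout 1 and knockout 2. None of these 5 genes passed the filter, so they were not tested.

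Areg, Ereg, Btc and Epgn are neighbours. They lie within 376 kb of chromosome 5 (91027464 to 91402994), in the order Epgn, Ereg, Areg, Btc, with Btc on the opposite strand, and no other gene of the deposited table lies in that span. All 4 were highest in knockout 1. Between the wild-type libraries they did not move as 1 block: Areg and Btc were higher in wild type 1, by 1.62 and 1.38 times, and Ereg was higher in wild type 2 by 8.67 times.

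The genes most like Areg and Egf were found by the distance between log2 CPM values centred over the 4 libraries, among 9970 genes of at least 5 CPM. Nearest to Areg were Sprr1a (33.9, 19.3, 153 and 26.5 CPM in wild type 1, wild type 2, knockout 1 and knockout 2, distance 0.18), a cornified envelope gene, then Cfb (0.25), a complement gene, and Ripk3 (0.27), a necroptosis kinase gene. Egf had no close neighbour. The nearest were the activin receptor gene Acvr1c (11.7, 10.7, 0 and 0.372 CPM, distance 1.87), the trypsin gene Try4 (63.5, 61.0, 0.448 and 9.29 CPM, distance 1.89) and the Y-linked gene Eif2s3y (distance 2.40). With 4 libraries such likeness is a description only.

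No gene of ligand shedding passed the test. Of 10 tested genes of ligand shedding, 0 passed in either direction by edgeR, DESeq2 or voom, where DESeq2 called 7.42% of all genes tested. In edgeR 1 of them, Adam8, was higher at an unadjusted p under 0.05, as were 9.22% of all genes tested, while 4 were higher and 0 lower without overlap, against 26.3% and 23.8% of all genes tested. Adam17, the main protease for Areg, Tgfa and Hbegf, measured 51.5 and 41.6 CPM for wild type and 71.3 and 54.6 CPM for knockout, a log2 fold change of 0.43 ± 0.21 (edgeR adjusted p = 0.406). Its cofactor Rhbdf2 measured 16.0 and 12.97 CPM for wild type and 25.3 and 17.7 CPM for knockout, or 0.57 ± 0.25 (edgeR adjusted p = 0.368). Adam10, the protease for Egf and Btc, measured 317 and 236 CPM for wild type and 286 and 223 CPM for knockout (-0.12 ± 0.26). Adam8 was far scarcer, with 0.363 and 0.833 CPM for wild type and 2.38 and 1.98 CPM for knockout. Timp3, a tissue inhibitor of these proteases, ranged from 5.73 CPM in wild type 1 to 74.7 CPM in wild type 2 and from 6.99 to 26.2 CPM in knockout 1 and 2, higher in the library numbered 2 of each genotype as the fibroblast markers were.

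Receptor inhibitors and turnover genes centred on 0. Of 18 tested, 0 passed by edgeR, DESeq2 or voom, where DESeq2 called 7.42% of all genes tested. At an unadjusted edgeR p under 0.05 there were 0, against 9.22% higher and 6.68% lower of all genes tested. Without overlap 1 was higher and 3 were lower, against 26.3% and 23.8% of all genes tested. The median log2 fold change was -0.0081. Errfi1, a feedback inhibitor that binds the Egfr kinase, measured 57.3 and 56.7 CPM for wild type, 96.5 CPM for knockout 1 and 55.3 CPM for knockout 2, so that knockout 1 alone stood out. Lrig1, which lowers receptor levels and marks progenitor cells, measured 77.5 and 116 CPM for wild type and 43.6 and 90.7 CPM for knockout.

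The adaptors and transducers went both ways. Of 29 tested, 0 passed by edgeR and 1 by DESeq2, which called 7.42% of all genes tested. Of the same genes, 3 higher and 4 lower had an unadjusted edgeR p under 0.05, against 9.22% and 6.68% of all genes tested. Without overlap 5 were higher and 7 lower, against 26.3% and 23.8% of all genes tested. The median log2 fold change was 0.0067. Grb7, an adaptor of Erbb2 and Erbb3, measured 41.4 and 34.4 CPM for wild type and 60.6 and 58.8 CPM for knockout, with no overlap (0.66 ± 0.15, edgeR adjusted p = 0.229). Shc1, an adaptor that docks on activated receptors, measured 61.2 and 59.5 CPM for wild type and 86.0 and 78.0 CPM for knockout. The PI3-kinase regulatory subunit gene Pik3r3 measured 12.2 and 10.8 CPM for wild type and 20.9 and 16.8 CPM for knockout. On the lower side, the exchange factor gene Sos2, with 39.3 and 42.5 CPM for wild type and 26.9 and 29.9 CPM for knockout, was lower without overlap. The adaptor gene Grb2 (61.6 and 55.9 CPM for wild type, 63.3 and 58.4 CPM for knockout) overlapped.

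The ERK feedback and ETS target list had 17 tested genes, of which 0 passed by edgeR and 3 (Etv4, Ccnd1 and Egr1) by DESeq2, which called 7.42% of all genes tested. There were 4 with an unadjusted edgeR p under 0.05, all higher, against 9.22% of all genes tested that were higher. Without overlap 8 were higher and 0 lower, against 26.3% and 23.8% of all genes tested. The median log2 fold change was 0.27. The ETS factor gene Etv4 measured 3.75 and 3.18 CPM for wild type and 12.9 and 12.4 CPM for knockout. The cyclin gene Ccnd1 measured 55.7 and 47.9 CPM for wild type and 198 and 127 CPM for knockout. Etv5, another ETS factor gene, measured 10.9 and 12.2 CPM for wild type and 17.4 and 30.4 CPM for knockout, and Egr1, an immediate early gene, 29.0 and 39.4 CPM for wild type and 70.3 and 156 CPM for knockout. All 4 genes were above both wild-type libraries in both knockout libraries, and knockout 1 was the higher knockout library for Etv4 and Ccnd1 and knockout 2 for Etv5 and Egr1.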

How the data were processed

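RNA was sequenced from corpus mucosa with a stranded kit for polyadenylated RNA, per the labels' protocols, and the genome build was mm10, per the submitters' processing notes. Aligner, counter and annotation: not given in the sources used here. The authors deposited estimated counts per gene, as the values show (35.0% of those above 0 were not whole); these were rounded before testing. Estimates share reads between similar sequences, and values of Btc, Ereg, Egf and Egfr were not whole in at least 1 library. Symbols and positions come from GENCODE M21 (34652 of 34866 rows matched by identifier).

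Genotypes were compared by edgeR 4.0.16 in R 4.3.3 (robust quasi-likelihood fit without covariates, TMM, filterByExpr at 10 counts). It took in 14067 genes and adjusted p by Benjamini-Hochberg. Standard errors are the log2 fold change divided by the square root of F. With 2 libraries per group an exact permutation test of 1 gene cannot go below p = 0.33, so none was run. Alternatives were DESeq2 1.42.0, limma 3.58.1 (voom) and settings given at the end. Log2 CPM used a prior count of 2. Intervals of count ratios are exact (Clopper-Pearson) and, like floors of 3 counts, cover counting error only.

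The members, lists and tests were chosen with earlier results of these data known. Named genes were all EGF family genes, Muc6, fixed anchors, and up to 5 genes of each pathway list with the smallest p among those with an unadjusted p under 0.05 and no overlap, and the genes nearest to members with a log2 fold change of at least 1 in size. Timp3 was chosen after its values were seen. Single results of some named genes are not reported here.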

Additional observations from a re-analysis of the deposited data

How the results depend on the processing

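Of 139 fold changes of single EGF family genes under the alternatives, 128 kept their direction and side of the threshold, 10 reversed and 1 (Hbegf without knockout 2, 1.23) passed, in a fit with 1 knockout library that called 851 genes. Ereg gave no value under the filter of 50 counts, which it did not pass. Reversals came without knockout 1 for Areg (-0.14), Btc (-0.034), Egfr (-0.51), Tgfa (-0.32) and Nrg1 (0.23), without wild type 1 for Ereg (-0.016), without wild type 2 for Tgfa (-0.056) and Nrg1 (2.45), and for Nrg1 by voom (0.73) and with the replicate block (0.38); the cause was not tested. Over fits without 1 library the ranges were -0.14 to 2.31 for Areg, -0.034 to 1.15 for Btc, -0.51 to 1.26 for Egfr, -0.016 to 3.06 for Ereg, -1.19 to 2.45 for Nrg1, -0.32 to 0.63 for Tgfa and -9.84 to -4.35 for Egf.

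The number of EGF family genes called was 0 to 1 over fits without 1 library, and 0 in the other alternatives. Their median was 0.015 to 0.86 over fits without 1 library. Over all genes, 0 were called as reported, 9 with no filter, 1044 by DESeq2 and 0 to 851 without 1 library. ERK feedback and ETS targets had 3 calls by DESeq2 and 0 to 1 without 1 library, and adaptors and transducers 1 by DESeq2 and 0 to 2 without 1 library.

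Sample numbers 1 and 2 are shared by both genotypes, but the labels do not say that they pair animals. Deviations of same-numbered libraries correlated at 0.52 over genes. With the replicate block, 0 EGF family genes were called, 4 had an unadjusted p under 0.05 against 1 without it, and the median was 0.45. Against the wild-type library of the same number, 6 of the 10 genes (Areg, Hbegf, Tgfa, Btc, Erbb2 and Erbb3) were higher in knockout in both numbers, as were 36.8% of all genes tested, and 1 (Egf) was lower in both, as were 36.0% of all genes tested. Low counts limit the values of Ereg and Nrg1, and their lowest counts (7 and 14) were in wild type 1, the library with the most counts in all.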
